A study of Mus musculus with 7 samples.

Results

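The profile described here is that of control dendritic cells grown in culture from mouse common myeloid progenitors, measured on the 4 one-colour Agilent arrays that the labels title as control replicates 1 to 4, out of 7 arrays in the series. The arrays were chosen by their titles, and the features by their signal: a non-control probe was kept where the scanner software had marked it well above background on all 4 arrays. That held for 27750 of 55681 probes (49.8%), and for at least 1 probe of 12882 of the 20018 genes that could be named (64.4%), which are called measured genes throughout. The donors were C57BL/6 mice carrying CD45.2 and a Gata2 gene flanked by loxP sites, with no Cre recombinase, so the gene stayed intact. They received tamoxifen between day 1 and day 10, as did the mice of the other group, which is not described here. Common myeloid progenitors, the marrow cells upstream of granulocytes, monocytes, platelets, red cells and part of the dendritic cells, were sorted from bone marrow on days 20 to 22. They were then grown over marrow feeder cells of SJL mice, which carry CD45.1, in medium with 200 ng/ml of FLT3 ligand, the cytokine that drives dendritic cell growth. No label describes a step that removed feeder cells or undifferentiated cells before RNA extraction, or states that the replicates came from separate animals. The spread given below is therefore that between these 4 RNA samples, which may be technical, and the arrays lay on 1 slide.

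Dendritic cells take up antigen, cut it in lysosomes and proteasomes and present it to T cells on MHC molecules, and they read microbes through Toll-like, lectin and cytosolic receptors. FLT3 ligand drives their growth from progenitors through the receptor Flt3. Conventional dendritic cells are divided into a type 1, which depends on Irf8 and Batf3 and presents dead cell antigen on MHC class I, and a type 2, marked by Sirpa and Irf4, while plasmacytoid dendritic cells depend on Tcf4 and make type I interferon. FLT3 ligand cultures of marrow are known to yield all of these.

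A level is the log2 of the processed spot signal relative to the array's 75th percentile, so a gene at 0 is as bright as that percentile and each unit is a doubling. Where a gene had several measured probes the brightest stands for it. Dimmer probes are given below for only some of these genes, so the same limit holds where none is given. A signal rank is the percentile of the gene's mean level among the 12882 measured genes. Levels ran from -5.34 to 7.43 with a median of 1.40. Probes bind with different strength, so a rank orders signals, not transcript numbers: in the 3135 genes with several measured probes, the brightest and the dimmest probe of the same gene differed by a median of 2.13 on the log2 scale (4.38-fold). The 4 arrays were of like quality, with 54.1% to 56.9% of spots well above background, no saturated spot, a 75th percentile between 2671 and 3303 intensity units and a Pearson correlation across genes between 0.987 and 0.995 for each pair. In RNA of a whole culture, fewer cells of a type and less RNA per cell cannot be told apart. All comparisons below are descriptions of 1 group, with no test.

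Across 49 gene lists of lineage, receptor and metabolic genes, the median signal rank ran from 8.39 for marrow stromal and bone genes to 96.7 for the subunits of ATP synthase. Metabolic lists had medians between 31.7 and 96.7, and 390 of their 414 members on the array were measured. Receptor lists lay between 26.6 and 94.4, with 275 of 321 members measured. Lineage lists had medians from 8.39 to 91.7, and 257 of 324 members were measured. Of all named genes 64.4% were measured, and each count of measured members below is to be read beside that share. The median rank was above 50 for 28 of the 49 lists.

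**Figure D1:**
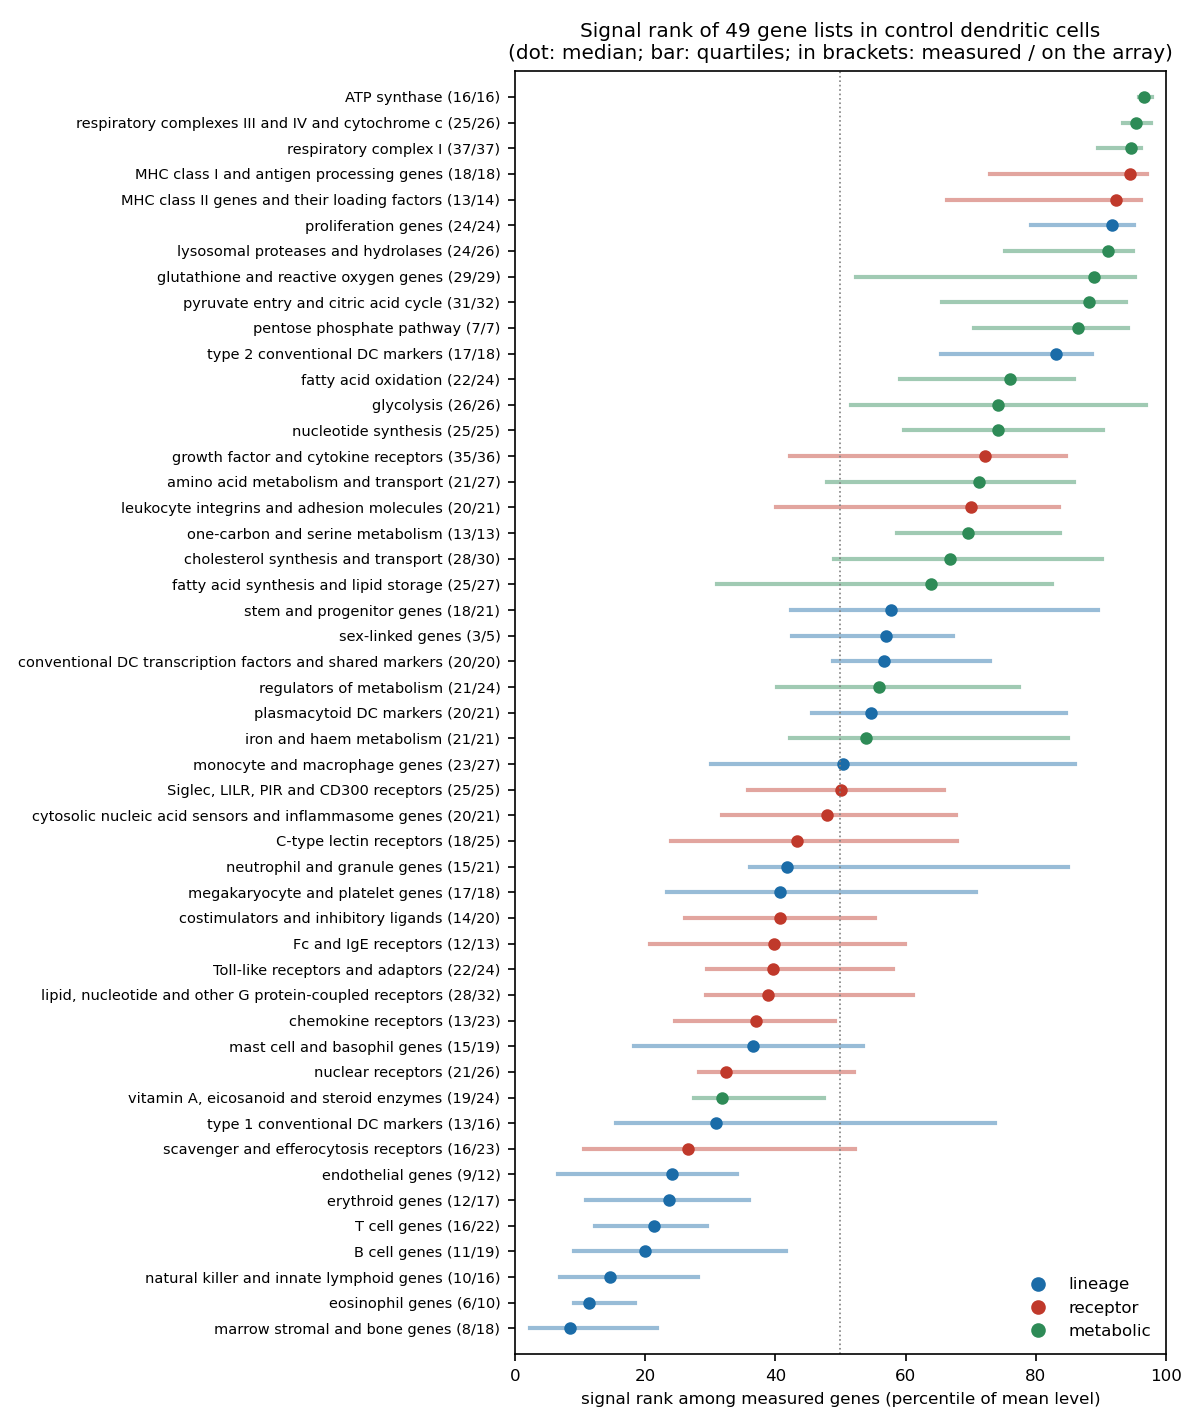
Signal rank of 49 gene lists on the control arrays. The x axis gives the percentile of a gene's mean level among 12882 measured genes; each dot is the median of a list's measured members, each bar spans their quartiles, and the brackets give measured members over members on the array. Respiratory chain, MHC class I and II and proliferation lists lie above 90, and the lymphoid, eosinophil and marrow stromal lists below 25.

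The shared dendritic cell list held 20 genes, all measured, with a median level of 1.93 and a median rank of 56.7. Irf8, a transcription factor that dendritic cell precursors need, was its brightest member at 6.02, 6.11, 6.10 and 6.11 on replicates 1 to 4 (mean 6.09, SD 0.04, rank 98.1). These values lay close together, although replicate 1 stood below the other 3. Flt3, the receptor for the ligand in the medium, read 4.99, 5.11, 5.06 and 4.88 (mean 5.01, SD 0.10, rank 92.8). Itgax, which encodes the integrin CD11c used to define dendritic cells, read 3.52, 3.69, 3.56 and 3.59 (mean 3.59, SD 0.07, rank 78.3). These 3 genes, chosen as defining markers, were thus bright on every array and tight between arrays. For Flt3 the rank rests on the choice of probe, since its second measured probe had a mean of -0.88.

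Other regulators were dimmer than Irf8. Id2, an inhibitor of E proteins that conventional dendritic cells require, was bright at a mean of 4.84 and lay lowest on replicate 4, at 4.41 against 4.85 to 5.07 on the others. Batf3 split the arrays into pairs, with 2.05 and 2.14 on replicates 1 and 4 against 1.52 and 1.58 on replicates 2 and 3. Irf4, needed by type 2 cells, had a mean of 1.31 and an SD of 0.13. Spi1, which encodes PU.1, read 0.84, 0.00, 0.71 and 0.82, so replicate 2 stood below the other 3. Zbtb46, a factor that marks the conventional lineage, read -2.70, -2.73, -2.90 and -3.13 and ranked at 15.3. Both of its measured probes were dim, with means of -2.87 and -3.14. Rel was the dimmest gene of the list at a mean of -4.08.

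The promoters of Itgax and Flt3 are shown because both are chosen markers and both hold GGAAGT within 150 bases of the start. These purine-rich letters are the core that ETS factors such as PU.1 recognise. The bases are from RefSeq on build GRCm38.p6, run up to the last base before the start and are written 5′ to 3′ along the gene, with each GGAAGT or its reverse complement in capitals. The Itgax bases are chr7:128129400-128129549 on the plus strand, with matches beginning at positions -121 and -41 from the start. The Flt3 bases are chr5:147400490-147400639 on the minus strand, with 1 match beginning at -75. A match describes the letters and is not evidence of binding.
Itgax: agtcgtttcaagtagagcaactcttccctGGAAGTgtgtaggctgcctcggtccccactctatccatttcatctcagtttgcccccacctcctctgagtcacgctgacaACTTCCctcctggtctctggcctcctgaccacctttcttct
Flt3: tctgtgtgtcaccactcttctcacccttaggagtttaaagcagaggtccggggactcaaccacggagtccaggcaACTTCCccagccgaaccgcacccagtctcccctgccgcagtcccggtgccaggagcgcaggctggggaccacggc

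The type 1 conventional markers were the dimmest of the 3 dendritic cell subsets. Of 16 members on the array 13 were measured, with a median level of -0.68 and a median rank of 30.9. Xcr1, the chemokine receptor that defines the subset, reached the threshold for well above background on no array, and Cd8a and Ly75 did so on 1 array each. Clec9a, the receptor for actin of dead cells, was measured but dim, at -0.74, -1.11, -0.96 and -1.52 (rank 27.7). Tlr3 had a mean of -4.36 and one of the wider spreads, from -5.11 on replicate 2 to -2.91 on replicate 4. Some other members of the list were brighter, among them Rab7b at a mean of 3.45. Wdfy4, a factor for cross-presentation, read 4.61, 5.25, 4.91 and 4.64, highest on replicate 2. Septin3 ranked at 99.5 by its brighter probe, but its other measured probe read -0.64. Naaa, an acid amidase, had a mean of 2.42 (SD 0.26), and Cd24a stayed between 3.09 and 3.36.

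Type 2 conventional markers ranked far higher, with a median level of 4.01 and a median rank of 83.0 over 17 measured genes of 18. Mgl2, a galactose-binding lectin, led at 5.61, 5.75, 5.91 and 5.67 (rank 96.8). Sirpa, the inhibitory receptor for CD47 that defines the subset, read 4.13, 4.35, 4.53 and 4.27 (rank 86.9). The lectin receptors Clec10a and Cd209a had means of 4.01 and 3.96 with SDs of 0.17 and 0.15. Clec4a4, the antigen of the 33D1 antibody, was dimmer at a mean of 2.04 and was highest on replicate 1. Csf1r, the receptor for macrophage colony-stimulating factor and shared with monocytes, read 5.34, 5.60, 5.73 and 5.46, and another of its 3 measured probes had a mean of -0.14. Esam was the dimmest member, between -4.08 and -2.11. The list's median was lower on replicate 1, at 3.84, than on the other arrays at 4.09 to 4.12. It is the value of its middle member: the median over members of the level minus the mean of the other 3 arrays was only -0.03 there, and 0.09 after quantile normalization, which gives all arrays one distribution of signals.

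Plasmacytoid markers had a median rank of 54.7 over 20 measured genes of 21, with a wide range from -4.46 to 5.97. Bst2, the tetherin that is also induced by interferon, read 6.03, 5.75, 6.15 and 5.94. Siglech, a sialic acid-binding receptor that defines the subset in mice, read 5.25, 5.59, 5.88 and 5.13 (mean 5.46, SD 0.34, rank 95.5), and its second measured probe was dimmer. Replicates 2 and 3 were the brighter pair for Siglech. Tcf4, the E protein that specifies plasmacytoid cells, stayed between 3.75 and 3.95 by its brighter probe, while the other read a mean of -0.45. Ly6d was bright on all arrays and highest on replicate 2, at 6.11 against 5.81 to 5.84. The endosomal DNA receptor Tlr9 and the interferon regulator Irf7 were near the middle of the scale, with means of 0.70 and 0.89, and both were lowest on replicate 2. Klra17 was the dimmest measured member at -4.46.

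**Figure D2:**
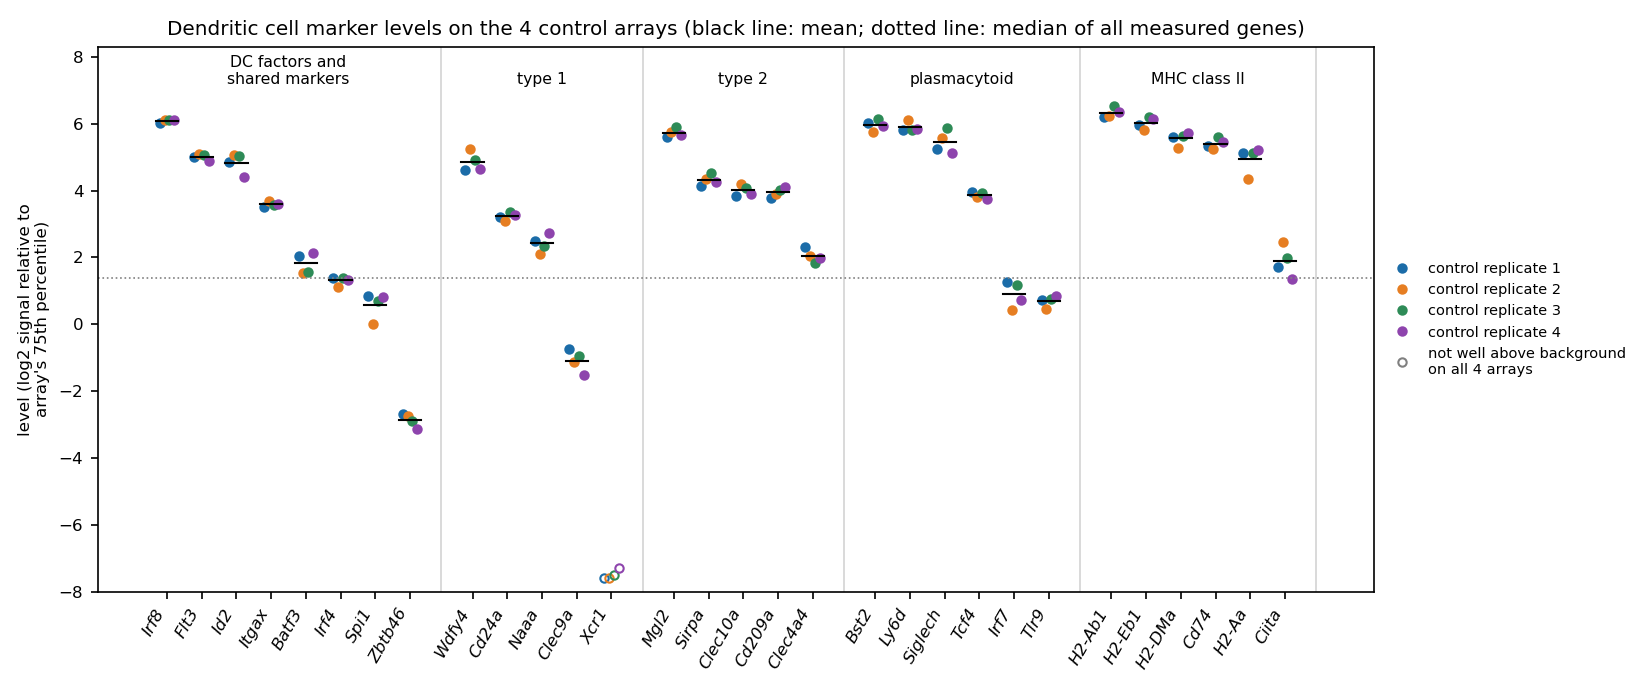
Levels of dendritic cell markers and MHC class II genes on the 4 control arrays. The y axis is the log2 signal relative to the array's 75th percentile; each point is 1 array, black lines are means of 4 arrays, open points belong to a gene not well above background on all 4, and the dotted line is the median of all measured genes at 1.40. Irf8, Mgl2, Bst2 and H2-Ab1 lie near 6 on every array, whereas Zbtb46, Clec9a and Xcr1 lie below 0.

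Markers of other myeloid cells were present beside those of dendritic cells. Of the monocyte and macrophage list 23 of 27 genes were measured, with a median rank of 50.3. Ly6c1 was the brightest of them, at 6.64, 6.67, 7.12 and 6.67 (rank 99.6); this probe may also bind its near-identical neighbour Ly6c2, which has no probe of its own name among those used. Lyz1 stayed between 5.47 and 5.66, while Lyz2, the lysozyme gene used to mark myeloid cells, had a mean of 2.98 (SD 0.29). Whether the Lyz1 probe also binds Lyz2 transcripts was not tested. Ccr2, the receptor that draws monocytes to inflamed tissue, had a mean of 4.09, and Cx3cr1 was higher on replicate 2, at 4.22, than on the other arrays at 3.30 to 3.43. Genes of mature macrophages divided. Adgre1, which encodes F4/80, had a mean of 3.51 and its second probe of 3.04, and Gpnmb, picked with its values in view, had a mean of 1.42. C1qa was well above background on 1 array, while the other C1q chains C1qb and C1qc were measured but dim, at -2.69 and -3.41. Mrc1 was also measured and dim, at a mean of -2.78. Mertk and Vsig4 were well above background on 1 array each, and Timd4 on none.

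Neutrophil and granule genes spanned the scale. Of 21 genes on the array 15 were measured (71.4%, against 64.4% of all named genes), with a median rank of 41.8. Mpo, the myeloperoxidase of promyelocytes, read 5.45, 5.43, 5.45 and 5.22 (rank 95.1). Ctsg, the granule protease cathepsin G, had a mean of 6.11, and its relatives Prtn3 and Elane had means of 4.12 and 2.71. Csf3r, the granulocyte colony-stimulating factor receptor, reached 6.54. Mmp8, a collagenase of later granules, was also bright with a mean of 4.21. Other granule genes of the list were far dimmer, with Ltf at -0.63, Lcn2 at -0.29 and Ngp at -3.30. Cxcr2 and Mmp9, which mark released neutrophils, were well above background on 1 array each, Cd177 on none, and S100a8 and S100a9, the subunits of calprotectin, had means of -0.02 and 1.98; S100a9 was picked with its values in view. Camp, which encodes an antimicrobial peptide of secondary granules, split the arrays, with 1.33 and 1.04 on replicates 1 and 2 against -0.66 and 0.05 on replicates 3 and 4. Chil3 followed the same split, at 1.20 and 0.92 against -0.01 and 0.33.

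Mast cell and basophil genes were measured for 15 of 19 (78.9%, against 64.4% of all named genes), with a median rank of 36.6. Cpa3, a carboxypeptidase of mast cell granules, read 2.31, 2.11, 2.49 and 3.20, and the basophil proteases Prss34 and Mcpt8 had means of 2.00 and 1.34. Prss34 ranged from 0.85 on replicate 1 to 2.91 on replicate 4. Kit, which also marks progenitors, stayed between 3.03 and 3.29. The connective tissue and mucosal mast cell proteases Mcpt1, Mcpt2, Mcpt4 and Cma1 were well above background on no array, and the IgE receptor subunit genes Fcer1a and Ms4a2 were dim, with means of -1.84 and -4.52. Gata2, the gene that the study targets and that stays intact in these mice, read -0.25, 0.24, 0.36 and 0.34 (mean 0.17, SD 0.29, rank 37.6), lowest on replicate 1. Eosinophil genes were dim throughout, at a median rank of 11.3 over 6 measured genes of 10, and Ccr3 and Alox15 were above background on no array.

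Platelet genes were measured for 17 of 18, with a median level of 0.50 and a median rank of 40.7. Pf4, platelet factor 4, read 5.58, 5.98, 5.97 and 5.35 (rank 96.8) and Rap1b, a GTPase of platelet integrin signalling with wide expression, had a mean of 5.04. Some defining receptors of platelets were far dimmer: Gp1ba had a mean of -1.41 and Gp6 of -3.80, and Itga2b lay between -2.50 and -1.60. The integrin chain Itgb3 went the other way by its brighter probe, at 3.36, while its other measured probe had a mean of -3.63. The erythroid list had 12 of 17 genes measured and a median rank of 23.6. Gata1 stayed between -0.81 and -0.26, Tfrc, the transferrin receptor of all dividing cells, had a mean of 4.63, and Alas2 and Rhag were above background on no array.

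Lymphoid genes ranked low. Median ranks were 21.4 for T cell genes, 19.9 for B cell genes and 14.6 for natural killer and innate lymphoid genes. Measured were 16 of 22 (72.7%), 11 of 19 (57.9%) and 10 of 16 (62.5%) of them, against 64.4% of all named genes. Cd3e, a chain of the T cell receptor complex, had a mean of -1.48 (SD 0.12), Gata3, Bcl11b and Lef1 were above background on no array, and Tcf7 read -1.99, -1.41, -1.79 and -2.25. Ms4a1 and Ebf1 of B cells and Ncr1 of natural killer cells were above background on no array. A few members of these lists were bright, namely Cd79b, a signalling chain of the B cell receptor, at 3.91, Klrd1, the CD94 receptor chain, at 4.56, and Cd28, a costimulatory receptor of T cells, between 2.25 and 2.49. Of these 3 Klrd1 varied most, with a range of 0.73 between arrays.

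Stem and progenitor genes were measured for 18 of 21, with a median rank of 57.8. Flt3 is counted in this list as well as in the shared dendritic cell list. Ly6a, which encodes Sca-1, read 5.69, 5.54, 6.22 and 5.65, Cd34 stayed between 4.79 and 5.15 by its brighter probe, and Lmo2 and Myc had means of 4.68 and 4.13. For Cd34 the other measured probe read -0.54. Some genes of stem cells were dim or not well above background. Hlf had a mean of -2.59, Procr of -2.75, Mecom was above background on no array and Erg and Slamf1 on 1 each. Others were brighter, such as Meis1, picked with its values in view, at 2.07. Runx1 had a mean of 1.96 by its brighter probe and of -0.24 by the other. All 24 proliferation genes were measured, with a median level of 4.88 and a median rank of 91.7. Mcm4 and Mcm6, subunits of the replication helicase, had means of 6.00 and 5.79, and Birc5, which encodes survivin, 5.80. Aurkb and Tyms were the dimmest, at 0.52 and -0.47.

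Genes of the marrow stroma and of vessels were dim. Of the stromal list 8 of 18 genes were measured, below the 64.4% of all named genes, and Col1a1, Cxcl12 and Pdgfra were above background on no array. Fn1 at 1.73 and Pdgfrb at 0.37 were its brightest members. Of the endothelial list 9 of 12 genes (75%) were measured, with a median rank of 24.2. Cdh5, the vascular cadherin, had a mean of -4.01, and Egfl7, made by vessels and by blood progenitors, of 4.58. The Y-linked genes Eif2s3y and Ddx3y had means of 3.55 and 1.94, and Xist, made from the inactive X chromosome, was also above background on all arrays, at -1.09, -1.43, -0.87 and -0.72. The source of the Xist signal was not tested.

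Antigen presentation was the brightest of the receptor classes. Of 14 MHC class II genes and loading factors 13 were measured, with a median level of 4.95 and a median rank of 92.3. H2-Ab1, the beta chain of I-A, read 6.21, 6.24, 6.53 and 6.36 (rank 98.7), and its second probe read a mean of 6.23. H2-Eb1, the beta chain of I-E, read 5.97, 5.83, 6.20 and 6.14. Cd74, the invariant chain that guards the groove, had a mean of 5.41 (SD 0.15), and the groove editor H2-DMa 5.56 (SD 0.20). Ctss, the protease that cuts the invariant chain, had a mean of 6.23. H2-Aa, the alpha chain of I-A, was lower on replicate 2, at 4.34, than on replicates 1, 3 and 4 at 5.12, 5.12 and 5.23. H2-DMb2 showed the same pattern at a lower level, with -1.05 on replicate 2 against 0.03 to 0.20. Over the list 8 of 13 genes had their lowest value on replicate 2, where 28% of all measured genes had theirs. Ciita, the coactivator that switches on these genes, did the reverse and was highest on replicate 2, at 2.47 against 1.36 to 1.99. On replicate 4, 7 of the 13 genes had their highest value, against 24.4% of all measured genes. H2-Eb2 was above background on no array.

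Promoters of 3 class II genes are shown because class II promoters carry a Y box, a CCAAT sequence bound by NF-Y, close to the start. They are taken from RefSeq on GRCm38.p6 in the same way, with CCAAT or its reverse complement in capitals. H2-Aa is chr17:34287824-34287973 on the minus strand, H2-Eb1 is chr17:34305717-34305866 on the plus strand and H2-DMb1, a chain of the groove editor with a mean level of 5.15 and named here after its values were seen, is chr17:34153041-34153190 on the plus strand. The reverse form ATTGG begins at -48 in H2-Aa, -59 in H2-Eb1 and -61 in H2-DMb1, and H2-Eb1 has a forward match at -35 as well.
H2-Aa: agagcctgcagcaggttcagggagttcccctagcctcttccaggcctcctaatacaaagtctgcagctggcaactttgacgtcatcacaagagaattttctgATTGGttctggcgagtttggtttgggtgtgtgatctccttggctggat
H2-Eb1: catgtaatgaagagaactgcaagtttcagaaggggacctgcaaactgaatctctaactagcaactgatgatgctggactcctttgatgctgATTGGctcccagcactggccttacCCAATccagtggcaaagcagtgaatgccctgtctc
H2-DMb1: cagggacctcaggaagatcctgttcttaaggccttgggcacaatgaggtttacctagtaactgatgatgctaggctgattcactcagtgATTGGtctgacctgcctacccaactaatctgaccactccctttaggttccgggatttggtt
Of the 10 measured class II genes with an entry among the RefSeq promoters, 6 hold CCAAT on either strand in the 300 bases from 250 before to 50 after the start, against 39.3% of 10358 measured genes and 37.9% of 27025 promoters in the table. With 10 promoters this share is only a description.

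MHC class I and antigen processing genes ranked higher still, all 18 being measured with a median rank of 94.4. The immunoproteasome subunit Psmb8 had a mean of 6.33 and B2m, the light chain of class I, of 6.20. H2-K1 and H2-D1 both had a mean of 5.86; their probes may bind other class I genes of near-identical sequence. The peptide transporter Tap1 was dimmer, at 1.17, and so was the class I transactivator Nlrc5, at 1.81. Costimulators were dim beside the presentation genes, with 14 of 20 measured and a median rank of 40.7. Cd80 had a mean of 2.14 (SD 0.23), and its second measured probe had a mean of -1.80. Cd86 read 1.59, 2.11, 1.51 and 1.50, so that replicate 2 stood above the other 3. The brightest member was Havcr2, the receptor TIM-3, with a mean of 2.31, and Tnfsf4 and Vtcn1 were above background on no array.

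Toll-like receptors and their adaptors had a median rank of 39.6 over 22 measured genes of 24. Unc93b1, the chaperone that carries endosomal Toll-like receptors, was the brightest at a mean of 5.08 (SD 0.10), followed by the adaptor Myd88 at 3.47. Among receptors Tlr12 and Tlr2 led with means of 2.75 and 2.35. Tlr4, the receptor for endotoxin, had a mean of -0.75, and Tlr5 and Tlr8 were above background on no array. Of the 22 genes 13 had their lowest value on replicate 2 (28% of all measured genes), and the list's deviation there was -0.23, where a deviation is the median over members of the level minus the mean of the other 3 arrays.

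Cytosolic sensors divided into bright and dim members, with 20 of 21 genes measured. Sting1, the adaptor for cytosolic DNA, read 5.34, 5.66, 5.56 and 5.37, and the inflammasome parts Pycard and Casp1 had means of 5.85 and 4.77. Cgas, the enzyme upstream of Sting1, had a mean of 4.47 by the brightest of its 3 measured probes and of -1.60 by the dimmest. Nlrp3 was dim with a mean of -4.09, as were Nod2 at -3.23 and the inflammasome product Il1b at -3.09. Of the 20 genes 13 had their highest value on replicate 2, against 39.5% of all measured genes.

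Of C-type lectin receptors 18 of 25 genes were measured (72%, against 64.4% of all named genes), with a median rank of 43.3. Beside Mgl2, Clec10a and Cd209a, the receptors Clec4d and Clec4n had means of 3.56 and 2.95. Cd207, the langerin of Langerhans cells, and Cd209b were above background on no array, and Clec12a had a mean of -3.50. Among Fc receptors the shared signalling chain Fcer1g had a mean of 6.07 (SD 0.10), the inhibitory Fcgr2b 2.32, and the high-affinity Fcgr1 -0.91. Tyrobp, the signalling chain of many receptors of the immunoglobulin family, reached 6.45. Scavenger and efferocytosis receptors were the dimmest receptor list, at a median rank of 26.6 with 16 of 23 measured (69.6%). Marco and Cd36 had means of -2.51 and -3.39 and were brightest on replicate 3, and Cd163 was above background on no array.

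Cytokine receptors were bright. All but Il2ra of 36 genes were measured, with a median rank of 72.2. After Csf3r and Csf1r the brightest were Il15ra at 5.07, Csf2rb2, a beta chain of the interleukin 3 receptor, at 5.06, and Flt3 at 5.01. The second measured probes of Il15ra and Csf2rb2 were dimmer, with means of -1.88 and 0.63. Chemokine receptors were measured for 13 of 23 (56.5%, against 64.4% of all named genes). After Ccr2 and Cx3cr1 the next was Ccr7, which guides mature dendritic cells to lymph nodes, at 1.32, 2.31, 1.54 and 1.67. Integrins and adhesion molecules had a median rank of 70.0, led by Itgb7 at 5.67 and Selplg, the ligand of selectins, at 5.46. Of nuclear receptors 21 of 26 were measured, with a median rank of 32.4. Rxrb led at a mean of 4.34 and the glucocorticoid receptor Nr3c1 followed at 3.24, while Pparg had a mean of -2.05. The second measured probe of Nr3c1 had a mean of -3.34. Adgrg3 and Gpr171 were the brightest of 28 measured G protein-coupled receptors of 32, at 4.90 and 4.63, and C5ar1 was well above background on 1 array.

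The respiratory chain stood at the top of the metabolic lists. All 16 ATP synthase genes were measured, with a median level of 5.70, a median rank of 96.7 and none below 4.45. All 37 complex I genes were measured, 27 of them ranked above 90, with a median rank of 94.6. Complexes III and IV had a median rank of 95.4 over 25 measured genes of 26. Cox8a and Cox6a1 of complex IV had means of 6.81 and 6.75, whereas the tissue-specific forms Cox7a1 and Cox4i2 had means of -0.53 and -1.56 and Cox8b was above background on no array. Cox6a2, a muscle form known also in plasmacytoid cells, was an exception with a mean of 4.49.

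Citric acid cycle and pyruvate entry genes had a median rank of 88.1, with 31 of 32 measured. Sdhb and Idh3g had means of 5.94 and 5.75, and the gene that was not measured, Pdk4, was above background on no array. Acod1, which makes itaconate in activated macrophages, had a mean of -3.99 and ranged from -5.36 on replicate 1 to -2.61 on replicate 2. Glycolysis genes were all measured but spread widely, with a median rank of 74.2 and quartiles at 51.6 and 96.9. Gapdh, Pgk1, Pgam1 and Ldha had means of 6.78, 6.54, 6.33 and 6.27. For Ldha the dimmest of 3 measured probes had a mean of 0.48. The lactate carriers were dim, with Slc16a3 at -0.95 and Slc16a1 at -3.71. The pentose phosphate list, 7 genes all measured, had a median rank of 86.5, led by Taldo1 at 6.36. Its first enzyme G6pdx had a mean of 4.28.

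Lipid lists lay in the upper part of the scale. Fatty acid oxidation genes had a median rank of 76.0, with the electron carriers Etfb and Etfa at 5.46 and 5.14, while the regulator Ppargc1a was above background on no array and Cpt1b, the muscle form of the entry enzyme, had a mean of -4.04. Cholesterol genes had a median rank of 66.8, with the sterol carrier Npc2 at 5.82. Ch25h was above background on no array. Fatty acid synthesis and storage genes had a median rank of 63.9 and included Fabp4, a lipid carrier of adipocytes and macrophages, which read -3.52, -3.41, -0.39 and -3.79. Its value on replicate 3 lay more than 3 above those of the other arrays. Lpl, the lipoprotein lipase, read -0.60, -0.54, 0.61 and -0.65, again apart on replicate 3 only.

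Redox and lysosomal genes were bright, while iron and haem genes had a median rank of 53.9 over 21 measured genes. Glutathione and reactive oxygen genes were all measured, 29 of 29, with a median rank of 89.0, led by Gpx1, between 6.88 and 7.17, and Sod1 at 6.67, and Cyba, a subunit of the phagocyte oxidase, had a mean of 6.22. Fth1, the ferritin heavy chain, had a mean of 7.09 and the light chain Ftl1 of 6.42, whereas the iron exporter Slc40a1 had a mean of -3.16. Lysosomal proteases and hydrolases had a median rank of 91.1 with 24 of 26 measured. Cst3, a cathepsin inhibitor that dendritic cells make in quantity, led at 6.51, and Ctsk was above background on no array. Nucleotide synthesis genes, all 25 measured, had a median rank of 74.1. Of amino acid genes 21 of 27 were measured (median rank 71.2). Glud1 and the glutamine carrier Slc1a5 had means of 5.26 and 5.10, but the immune-regulatory enzymes Arg1, Arg2, Ido1 and Ido2 were above background on no array and Nos2 had a mean of -2.97. Vitamin A, eicosanoid and steroid enzymes were the dimmest metabolic list at 31.7. Alox5ap and Lta4h of leukotriene synthesis had means of 6.02 and 4.71, and Aldh1a2, which makes retinoic acid in gut dendritic cells, was above background on no array.

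The highest single signals included those of Tuba1b, a tubulin, at 7.43, Rps9 at 7.36, Rps10 at 7.13 and Rplp1 at 7.11. Of the 40 brightest genes 20 encode ribosomal proteins, which many processed pseudogenes resemble. Plac8 and Slc10a1 were among the 15 brightest as well, with Plac8 at a mean of 7.02 and Slc10a1 between 6.84 and 7.21. Slc10a1 encodes a bile acid carrier of the liver, and whether its probe also binds another transcript was not tested.

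Between the 4 arrays the median SD of a gene was 0.20 on the log2 scale, with quartiles of 0.14 and 0.29. It fell with level, from a median of 0.27 in the lowest of 5 equal groups of genes to 0.16 in the highest, and 16.6% of the lowest group had an SD over 0.5 against 0.194% of the highest. Single spots of the same probe on the same array differed less, with a median SD between 0.071 and 0.084 over 254 measured probes with 10 spots each. Between arrays the median SD of the same probes was 0.172. That value is for means over the spots of a probe, so the measures are not alike. Replicate 2 was the array farthest from the median for 44.5% of genes, and 251 genes lay more than 1 above the mean of the other arrays on it, against 43 to 58 on the others.

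The widest spreads belonged to dim genes. Pigb had the largest SD, 1.76, with -1.17, -5.00, -3.75 and -1.82. Mro read -5.32, -3.14, -1.50 and -4.72. Gzmb, the protease granzyme B, read -3.98, -4.45, -2.71 and -0.92, highest on replicate 4. Prss2, a trypsinogen of the pancreas, read -5.22, -5.06, -1.85 and -4.04, highest on replicate 3. The highest value thus lay on replicate 1 for Pigb, on replicate 4 for Gzmb and on replicate 3 for Mro and Prss2.

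**Figure D3:**
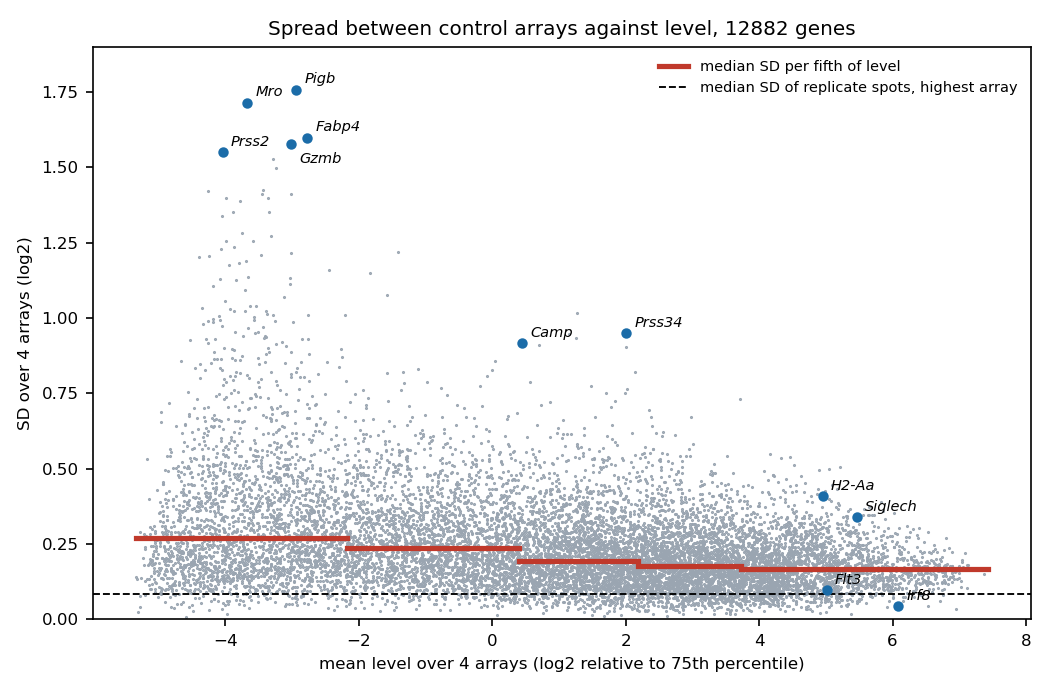
Spread between the 4 control arrays against level for 12882 measured genes. The x axis is the mean level, the y axis the SD over 4 arrays, both on the log2 scale; each grey point is a gene, red lines are the median SD of 5 equal groups of genes by level, and the dashed line is the median SD of replicate spots on the array where it was highest, 0.084. Pigb, Mro, Fabp4, Gzmb and Prss2 lie at the top left, and Irf8 and Flt3 lie close to the dashed line, which is for single spots.

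Some gene lists departed together on 1 array. The shares of all measured genes with their highest value on replicates 1 to 4 were 11.6%, 39.5%, 24.5% and 24.4%, and those with their lowest value there 29.8%, 28%, 15% and 27.2%. Interferon-stimulated genes, a list added after the data had been seen, gave the widest departure. Of 36 measured members 28 had their lowest value on replicate 4 and 23 their highest on replicate 3, with deviations of -0.64 and 0.49. Oas1a, an RNA-sensing synthetase, read 3.73, 4.36, 4.09 and 2.69, the ubiquitin-like Isg15 read 2.62, 2.99, 3.16 and 2.11, and Oasl2 read 1.81, 2.13, 2.35 and 0.88. All 3 were picked with their values in view, and each was lowest on replicate 4. With replicate 4 left out the deviation on replicate 3 was 0.32.

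Replicate 4 also differed in mast cell, basophil and platelet genes. Of 15 mast cell and basophil genes 9 were highest there and 1 lowest, with a deviation of 0.38, and Cpa3, Prss34, Mcpt8, Gzmb and Fcer1a were all among the 9. Platelet genes were lowest on replicate 4 for 10 of 17 (deviation -0.41) and highest on replicate 2 for 11 of 17 (deviation 0.35). Pf4 and Gp1ba were both lowest on replicate 4, at 5.35 and -2.12. The 2 platelet departures depend in part on each other: without replicate 2 that on replicate 4 was -0.26, and without replicate 4 that on replicate 2 was 0.22. On replicate 2, where 39.5% of all measured genes were highest, several lists had raised values: nuclear receptors with a deviation of 0.37 and 11 of 21 genes highest there, costimulators with 0.37 and 8 of 14, natural killer and innate lymphoid genes with 0.36 and 6 of 10, and T cell genes with 0.31 and 9 of 16. The natural killer list was also raised on replicate 4, at 0.23. Gzma, Xcl1 and Il2rb were among its 6 genes highest on replicate 2. These 3 are dim genes, with means of -3.93, -4.05 and -4.33.

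On replicate 3, 14 of 23 monocyte and macrophage genes had their highest value, and so did 39 of 41 ribosomal protein genes, a second list added after the data had been seen. The deviations were 0.20 and 0.28. Quantile normalization took them to 0.06 and -0.0034, and the genes that were highest on replicate 3 then numbered 11 of 23 monocyte and macrophage genes and 7 of 41 ribosomal genes, against 17.8% of all measured genes. It likewise took the deviation of complexes III and IV on replicate 1 from -0.25, with 18 of 25 genes lowest there, to -0.11. The interferon, mast cell and platelet departures on replicate 4 were -0.62, 0.39 and -0.36 after the same step. That of MHC class II genes on replicate 2 was -0.27, against -0.20 before it. On replicate 4 the class II list departed upwards, by 0.26 after the step and 0.15 before it. After the step 11 of 13 class II genes were highest on replicate 4, against 29.3% of all measured genes.

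**Figure D4:**
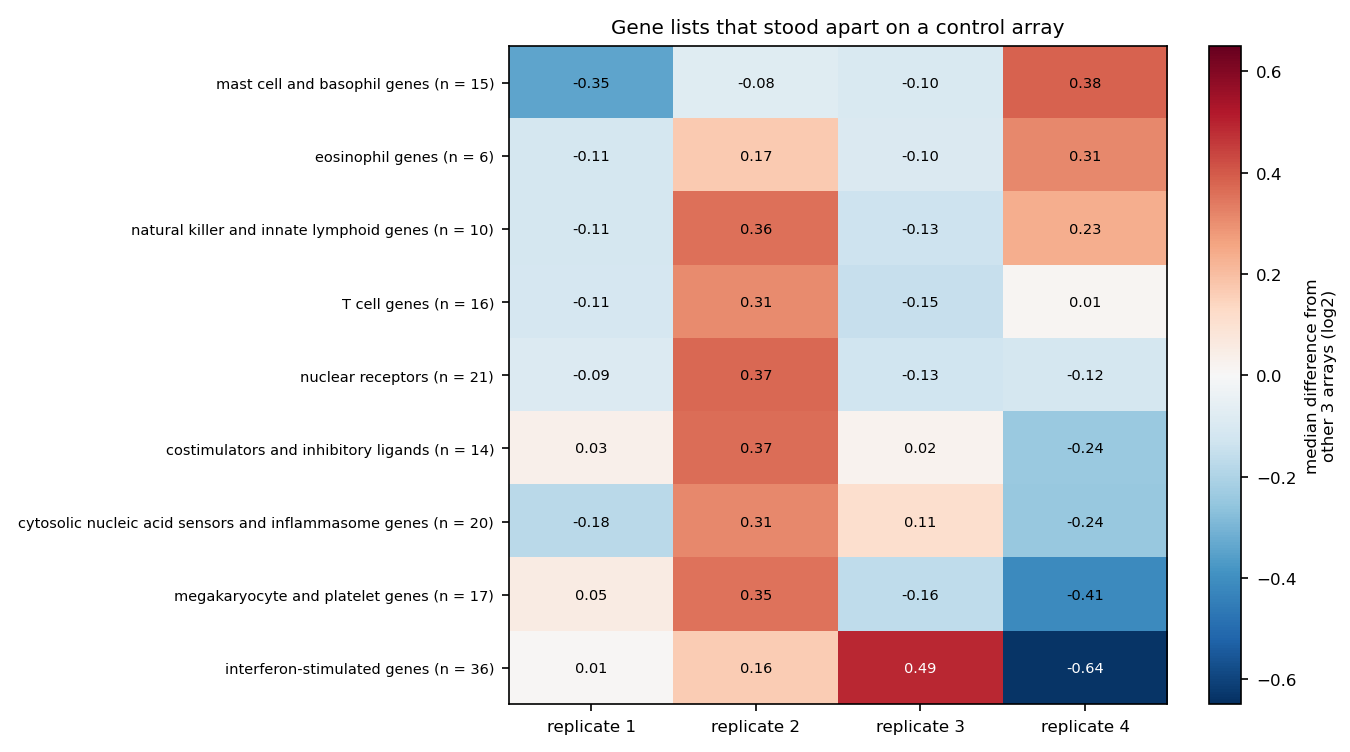
Gene lists that departed by at least 0.3 on a control array. Columns are the 4 replicates, rows are lists with the number of measured members, and each cell gives, on the log2 scale, the median over members of the level minus the mean of the other 3 arrays (red above 0, blue below). Interferon-stimulated genes are the most divergent, from 0.49 on replicate 3 to -0.64 on replicate 4, and mast cell and basophil genes run the other way on replicate 4, at 0.38.

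Level went with the base composition of the promoter. Promoters from the RefSeq table were available for 10358 measured genes and for 4115 genes of the array that were well above background on no array. The median ratio of observed to expected CpG was 0.264 in the latter and 0.440, 0.697, 0.773, 0.806 and 0.813 in measured genes split into 5 equal groups from the lowest to the highest level. The GC box GGGCGG was held by 27.0% of promoters of the unmeasured genes and by 59.2%, 64.7%, 67.1% and 66.3% in the upper 4 groups of measured genes, in rising order of level. GGAAGT, the ETS-type core shown above for Itgax and Flt3, was held by 18.1% of the genes above background on no array. Its share was 23.4% in the lowest and 33.7% in the highest group, against 24.1% of all promoters in the table. TATAAA was held by 22.4% of the genes above background on no array. It was held by 12.7%, 7.97%, 5.98%, 6.72% and 7.63% in the 5 groups, so its share was lowest in the middle group. CCAAT changed little, lying between 37.1% and 41.5% in every group. All motifs were searched on both strands of 300 bases. These shares move with base composition, and its part in them was not tested.

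**Figure D5:**
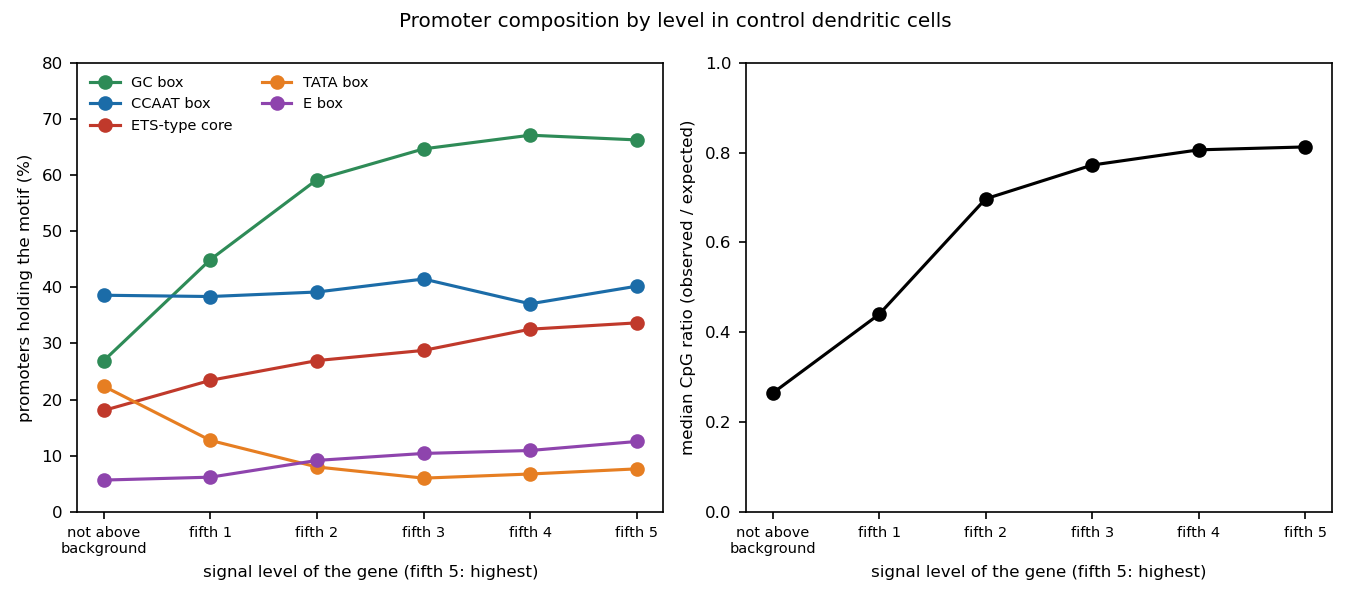
Promoter composition by level. Left, the percentage of promoters (250 bases before to 50 after the start) holding each motif on either strand. The motifs are the GC box, the CCAAT box, the ETS-type core, the TATA box and the E box (CACGTG). Right, the median ratio of observed to expected CpG. The x axis runs from genes above background on no array to the highest of 5 groups of measured genes; the GC box goes from 27.0% to 66.3% and the TATA box from 22.4% to 7.63%, with its lowest share, 5.98%, in the middle group.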

How the data were processed

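RNA of the cultures was amplified, given the dye Cy3 and put on 1 one-colour array per sample, as the labels' protocols state. The deposited scanner files give each spot's intensity, read by the Feature Extraction software of Agilent (version 10.7.3.1 per the file headers), with a processed signal already corrected for background. Each array has 62976 spots, 3671 of them controls. Outlier spots were left out. Levels are log2 processed signals minus log2 of the 75th percentile of the same array's non-control spots, averaged over spots of a probe; a probe with replicate spots counted as well above background where at least 50% of its spots were. A deposited table of the whole series does not state its scale or centring. Set against the scanner values, these deposited values are log2 signals that the authors had centred per probe, with column medians of 0. Its differences between arrays had a correlation and a slope of 1 with those of the scanner values, so it served as an alternative. The 3 columns of the other group in it were not used.

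Probes were named by matching accessions without version to a RefSeq table of GRCm38.p6: 26413 probes matched, 79.9% of the 33064 with a RefSeq-style accession. The arrays were designed on an older build, so no probe coordinates are given.

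Named genes were drawn from all members of lists with up to 12 on the array, and of longer lists up to 5 of the brightest, 4 of the dimmest, 3 of the most variable and 5 unmeasured; the 15 brightest and 15 most variable genes; 6 genes whose probes differ most; and defining markers. Other genes are marked as picked with their values in view. Some list members are not reported here. The members and lists were chosen with earlier results of these data known. An array lay apart for a gene or list where its gap to the nearest array was over 0.829 of the range (Dixon's 95% value for 4 values). No test was made, as only 1 group is described, and the number of arrays limits the precision. The code was tested on simulated data. Alternatives covered background correction with normexp (limma 3.58.1, R 4.3.3, offset 50, on the median signal), scaling, filter, probe rule, outlier spots and each array left out.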

Additional observations from a re-analysis of the deposited data

Results flagged for a closer look

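Of the genes named above, 182 measured ones were checked against Dixon's limit on the gap as a share of the range. On 1 array each, 17 of these genes, and the medians of 2 of 51 lists, lay apart from the other 3 beyond that limit. Chance passes it in about 1 in 20 groups of 4, and 6.88% of all measured genes passed it. The named genes include some chosen as most variable. Replicate 2 was apart for Cd86 at 2.11, Cx3cr1 at 4.22, Ly6d at 6.11, H2-Aa at 4.34, H2-DMb2 at -1.05, Slc16a1 at -3.78 and Spi1 at 0.00079. The first 3 were above the other arrays and the last 4 below. Replicate 3 was above the others for Fabp4 at -0.39, Lpl at 0.61, Ly6c1 at 7.12, Mmp8 at 4.39, Psmb8 at 6.53, Rps9 at 7.59 and Sdhb at 6.13. Replicate 1 was below the others for Irf8 at 6.02, and replicate 4 for Mpo at 5.22 and Taldo1 at 6.20. Of the lists, the type 2 conventional dendritic cell markers had their low median on replicate 1, at 3.84, where their deviation was only -0.03 (0.09 after quantile normalization), and MHC class II genes theirs on replicate 2, at 4.34, which is the value of H2-Aa.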

How the results depend on the processing

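For levels and signal ranks, the median level of measured genes, 1.40, was 0.45 with the dimmest probe of a gene (an alternative added after seeing the data), 0.89 with the median over its probes, 5.95 with the array median as the zero, -1.83 with no filter and 1.29 with a filter on 3 arrays. Leaving out 1 array at a time gave 1.34 to 1.40. For the spread between control arrays, the median SD, 0.20, lay between 0.150 and 0.208 with 1 array left out, lowest without replicate 2. The deviation of ribosomal protein genes on replicate 3 turned from 0.28 to -0.0034 after quantile normalization. With no filter, 75 of 76 signal ranks of lists and genes moved by more than their spread between arrays, and 64 of 76 did with the dimmest probe, so ranks rest on the filter and on the probe. Dim genes near background limit the precision. No paired analysis was possible because 1 group is described and no test was made.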
